A study of Mus musculus with 6 samples.

Results

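Genes that handle arsenic and keep the thiol balance of the cell were compared between normal myeloid progenitors (MPs) and acute promyelocytic leukemia (APL) progenitors of the mouse. The group holds 10 genes, chosen by name: the arsenic carriers and modifiers Aqp9 and As3mt, the glutathione genes Slc7a11, Gclc, Gclm and Gsr, the thioredoxin genes Txn1 and Txnrd1, and the NRF2 targets Hmox1 and Nqo1. All 10 were found among the 16440 genes of the deposited table, and all 10 had enough signal to be tested. RNA-seq covered 6 libraries, 3 per group, which the series' design text calls biological replicates. MPs were sorted from the bone marrow of FVB N/J mice as cells that were Lin-, Sca-1- and c-Kit+. The APL cells, also on FVB N/J, came from leukemias of hMRP8-PML/RARα transgenic mice, in which the human MRP8 promoter drives the fusion gene in myeloid cells. They were marked with GFP by the retroviral vector MigR1, grown in syngeneic recipients and sorted for c-Kit. The labels name no drug treatment and no age for either group, and they do not say whether the APL libraries came from separate primary leukemias, so the p-values measure only the spread between these libraries.

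Arsenic trioxide is a standard drug of APL. Trivalent arsenic enters cells through aquaglyceroporins such as Aqp9, is methylated by As3mt, and is bound by glutathione and other thiols before transporters of the Abcc family export it. Glutathione is made from cysteine, which the Slc7a11 antiporter brings in as cystine, by glutamate-cysteine ligase (Gclc and Gclm) and glutathione synthetase, and oxidized glutathione is reduced again by Gsr. Thioredoxin and its reductase form a parallel thiol system, and the transcription factor NRF2 (Nfe2l2) drives many genes of both systems when oxidants or arsenic inactivate its inhibitor Keap1.

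The libraries held between 20608715 and 28382785 fragments before the authors' scaling. MP library 3 stood apart from MP libraries 1 and 2, from which it differed by 12.3 and 12.2 times the variance of counting noise (median over genes), against 3.20 times between MP libraries 1 and 2 and 3.88 to 6.43 times between APL libraries. The sorting marker Kit was present in every library, with 70.6 to 74.5 FPKM in MPs and 39.6 to 40.7 FPKM in APL progenitors, and was called lower (−0.85 on the log2 scale). Ly6a, which encodes Sca-1, was low in both groups and was called higher at 0.68. It had 0.955 to 1.59 FPKM in MPs and 2.02 to 2.37 FPKM in APL progenitors. Cd34, a marker of early progenitors, had 83.9 to 112 FPKM in MPs and 1.04 to 1.26 FPKM in APL progenitors (−6.31 on the log2 scale). Markers of several cell types differed between the sorts. Of all genes tested, 24.4% were called lower and 21.7% higher. Of 8 erythroid marker genes tested, 7 were lower in APL progenitors, and the summed level of the list was 1501 to 1978 FPKM in MPs and 12.3 to 23.4 FPKM in APL progenitors. Of 6 megakaryocyte markers 5 were lower. Of 5 primary granule genes of promyelocytes 4 were higher, with sums of 8770 to 9920 FPKM in MPs and 24186 to 28629 FPKM in APL progenitors. In bulk libraries a lower value of a gene can come from fewer cells of a type or from less RNA per cell. A higher value can likewise come from more cells of a type or from more RNA per cell. In neither direction can these be told apart here.

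Genes were called with limma on log2(scaled fragments + 1), at a Benjamini-Hochberg adjusted p under 0.05 over the 14595 genes tested and a fold change over 1.5. Scaled fragments are the deposited fragment estimates, which carry a scaling factor of each library. Of the 10 genes, Gsr, Slc7a11 and Hmox1 were higher in APL progenitors, Aqp9 and Nqo1 were lower, and the other 5 were not called. The 5 called genes of 10 stood against a background in which 46.1% of all genes tested were called, 21.7% as higher and 24.4% as lower, so the number of called genes was close to that of any 10 genes. By the adjusted p alone 8 of the 10 genes passed, against 67% of all genes tested. For 9 of the 10 genes the ranges of the 3 APL and 3 MP libraries did not overlap, which held for 70.9% of all genes tested. Their median was 0.25 on the log2 scale, against −0.10 over all genes tested. What set the genes apart from each other was the size and the direction of their differences.

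**Figure D1:**
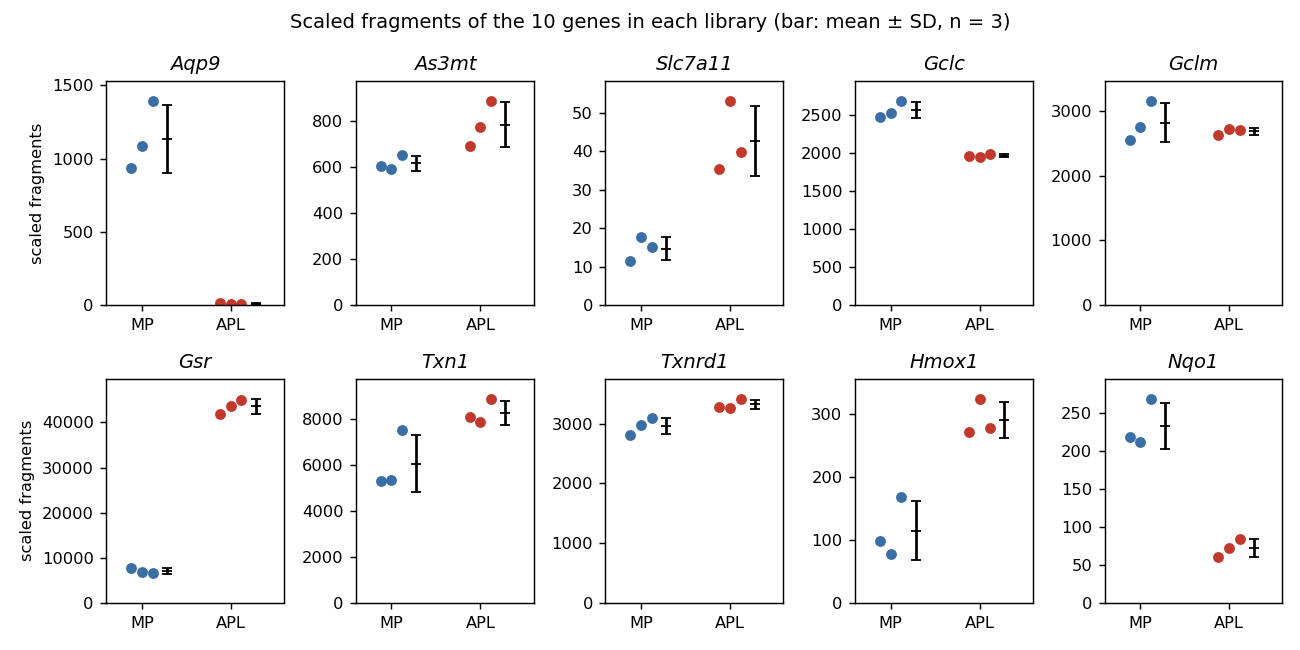
Scaled fragments (y axes, linear from 0) of each of the 10 genes in the 3 MP (blue) and 3 APL (red) libraries, with the mean and SD of each group as a black bar. Aqp9 lay between 933 and 1390 in MPs and between 4.94 and 17.7 in APL progenitors, Gsr lay between 41818 and 45046 in the APL libraries, and Gclm was the 1 gene whose groups overlapped.

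**Figure D2:**
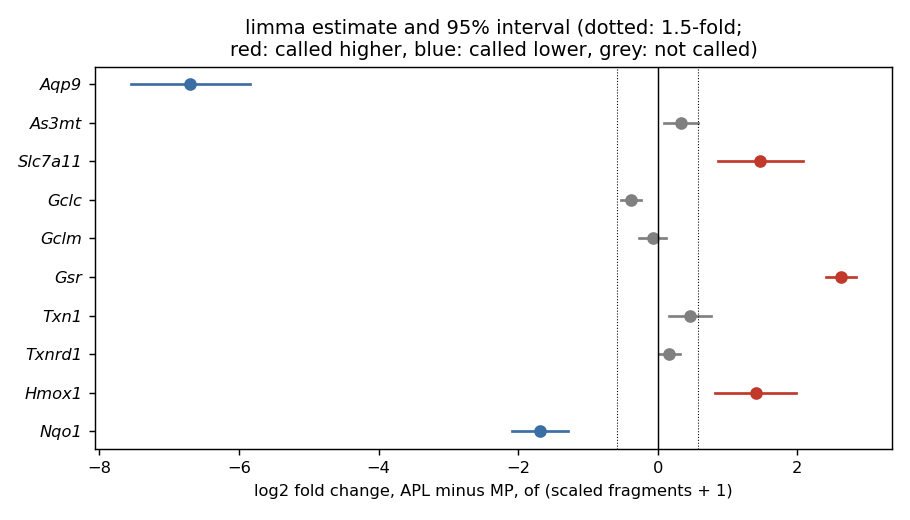
Log2 fold change of each gene, APL minus MP (x axis), as limma's estimate with its 95% interval, and dotted lines at a 1.5-fold change. Aqp9 at −6.70 and Gsr at 2.63 were the farthest from 0 on either side, and the intervals of As3mt, Gclc, Gclm, Txn1 and Txnrd1 crossed or lay within the dotted lines.

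Aqp9, the aquaglyceroporin that carries glycerol, water and trivalent arsenic into cells, lies on chromosome 9 from 71110660 to 71163289 (coordinates from the table, in mm10, the build of the submitters' notes). The MP libraries held 933, 1083 and 1390 scaled fragments of Aqp9, in the order of their numbers, and the APL libraries 17.7, 10.4 and 4.94. The groups were far apart, and the APL values rested on 15, 12 and 4 fragments before scaling. The means were 1135 ± 233 and 11.0 ± 6.39 scaled fragments (SD, n = 3 each), 103-fold lower in APL progenitors. On the log2 scale the difference was −6.70 (standard error 0.37, 95% interval −7.54 to −5.85, adjusted p = 6.4e-07 from limma), and 0.754% of the genes tested had a more negative value. On the log2(FPKM + 1) scale, where the pseudocount weighs more at low levels, it was −3.93. Aqp9 is known from neutrophils and other leukocytes. Of 9 late neutrophil markers, 3 were higher (S100a8, S100a9 and Retnlg), 2 were lower (Ltf at −1.42 and Ngp at −1.46) and none was at 0. The summed level was 11954 to 18600 FPKM in MPs and 45928 to 59823 FPKM in APL progenitors. Most of this sum was S100a8 and S100a9. Of 8 erythroid markers tested, 7 were lower and 1 was not called. Their summed level was 1501 to 1978 FPKM in MPs and 12.3 to 23.4 FPKM in APL progenitors. The part of neutrophils, erythroid cells or monocytes in the difference of Aqp9 was not tested. Of 6 monocyte markers, 3 were lower (Irf8, Csf1r and Ly86) and 2 were higher (Ccr2 at 1.19 and F13a1 at 2.79 on the log2 scale), and the sum of the list, of which F13a1 made up most in APL progenitors, was 106 to 128 FPKM in MPs and 259 to 282 FPKM in APL progenitors.

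As3mt, the methyltransferase that turns inorganic arsenic into methylated forms, had 607, 593 and 656 scaled fragments in the MP libraries and 693, 775 and 887 in the APL libraries. Every APL value was above every MP value, by a small margin. The log2 fold change of 0.34 (standard error 0.11, 95% interval 0.10 to 0.58, adjusted p = 0.019 from limma) corresponded to a 1.27-fold difference, under the fold required for a call. Its adjusted p lay between 0.0041 and 0.087 over the alternatives tried.

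Of the 11 tested genes of arsenic transport and metabolism, As3mt and Aqp9 included, 4 were higher (36.4%, against 21.7% of all genes tested), 1 (Aqp9) was lower and 6 were not called. Abcc2, an exporter of glutathione conjugates, rose from 86.2 ± 11.4 to 784 ± 188 scaled fragments (SD, n = 3 each), by 3.15 on the log2 scale. Slc2a1, the glucose carrier GLUT1, rose 2.61-fold, from 301 ± 38.0 to 786 ± 94.7 scaled fragments. Pnp, the purine nucleoside phosphorylase, which can also reduce arsenate, rose from 3170 ± 130 to 6334 ± 213 scaled fragments (log2 fold change 1.00). Gsto1, a glutathione transferase of the omega class that reduces methylated arsenic, had a log2 fold change of 0.69, and fell short of the 1.5-fold threshold at 0.56 when all libraries were scaled to the same total. The exporters Abcc1 and Abcc4 were not called, with log2 fold changes of 0.10 and 0.52. Among the aquaglyceroporins, Aqp9 was the 1 with more than a few fragments: Aqp3 and Aqp7 had at most 5.41 scaled fragments in any library.

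Slc7a11, the cystine-glutamate antiporter, was rare in both groups. It had 11.5, 17.7 and 15.0 scaled fragments in the MP libraries and 35.4, 53.0 and 39.9 in the APL libraries. The lowest APL value was above the highest MP value, and the means were 14.7 ± 3.10 and 42.7 ± 9.12 (SD, n = 3 each), a 2.90-fold increase. On the log2 scale it rose by 1.47 (standard error 0.27, 95% interval 0.86 to 2.09, adjusted p = 0.0011 from limma). It was 0.75 with FPKM and a pseudocount of 0.1, and Slc7a11 was below the filter of 1 FPKM in all libraries. Slc3a2, the heavy chain that carries Slc7a11 and other transporters to the membrane, was abundant and not called, with a log2 fold change of 0.37.

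Gclc and Gclm form glutamate-cysteine ligase, the rate-limiting enzyme of glutathione synthesis. Gclc, the catalytic subunit, had 2480, 2531 and 2680 scaled fragments in MPs and 1964, 1947 and 1990 in APL progenitors. All APL values were lower, and the difference was −0.38 on the log2 scale (standard error 0.06, 95% interval −0.53 to −0.24, adjusted p = 6.8e-04 from limma), a 1.30-fold difference and under the fold for a call. Gclm, the modifier subunit, had 2552, 2754 and 3145 scaled fragments in MPs and 2619, 2724 and 2702 in APL progenitors. These groups overlapped, the log2 fold change was −0.07 (95% interval −0.26 to 0.13, adjusted p = 0.51 from limma), and its sign turned to 0.016 without MP library 3. The ratio of Gclc to Gclm in FPKM was 0.314 ± 0.014 in MPs and 0.250 ± 0.0075 in APL progenitors (SD, n = 3 each), with no overlap between groups (two-sided exact permutation p = 0.1, the smallest that 3 libraries against 3 allow). Gss, the synthetase of the second step, had a log2 fold change of 0.0047 and was not called.

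Of the 12 genes of cystine uptake and of glutathione synthesis and breakdown, 2 were higher, 1 was lower and 9 were not called. These were 16.7% higher and 8.33% lower, against 21.7% and 24.4% of all genes tested. Besides Slc7a11 the higher gene was Chac1, a cytosolic enzyme that degrades glutathione. Chac1 had 7.49, 10.5 and 8.12 scaled fragments in the MP libraries and 183, 214 and 200 in the APL libraries, a 22.9-fold increase (log2 fold change 4.38, standard error 0.21, adjusted p = 2.8e-07 from limma). The lower gene was Ggt5, an extracellular gamma-glutamyl transferase, at −0.92, which lost its call with quantile normalization (−0.54, adjusted p = 0.058 from limma).

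Gsr, the glutathione reductase, returns oxidized glutathione to its reduced form with NADPH, and lies on chromosome 8 from 33653237 to 33698162. The MP libraries held 7752, 6752 and 6584 scaled fragments of Gsr, and the APL libraries 41818, 43732 and 45046. The APL libraries lay close together and far above the MP libraries, with means of 43532 ± 1623 and 7030 ± 631 (SD, n = 3 each). The 6.19-fold increase corresponded to 2.63 on the log2 scale (standard error 0.09, 95% interval 2.42 to 2.85, adjusted p = 5.4e-08 from limma), and 4.66% of the genes tested had a larger increase. Its estimate lay between 2.50 and 2.71 under every alternative tried. In FPKM, Gsr went from 110 ± 11.4 to 682 ± 29.5, which placed it above all but 0.785% of the genes of the table in APL progenitors.

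The genes that make glutathione, Gclc, Gclm and Gss, were not called beside the increase of Gsr. Within each library, the FPKM ratio of Gsr to Gclc was 4.95, 4.19 and 3.81 in MPs and 33.2, 35.2 and 35.8 in APL progenitors. The ratio of Gsr to Txnrd1, the reductase of the thioredoxin system, was 3.51 ± 0.501 in MPs and 19.4 ± 0.602 in APL progenitors (SD, n = 3 each). For both ratios the groups did not overlap (two-sided exact permutation p = 0.1, the smallest possible). Gclc and Txnrd1 differed far less than Gsr, so both ratios mainly restate the increase of Gsr. In APL progenitors Gsr thus had the highest FPKM of the 10 genes, whereas in MPs it came second to Txn1.

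Of the 9 tested genes of the list that holds Gsr, the glutathione peroxidases and the glutaredoxins, 2 were higher, Gsr included. Another 2 were lower and 5 were not called. Each direction held 22.2% of the list, close to the 21.7% higher and 24.4% lower of all genes tested. Glrx, the cytosolic glutaredoxin that removes glutathione from proteins, rose from 1834 ± 196 to 4730 ± 197 scaled fragments (SD, n = 3 each; log2 fold change 1.37). Glrx5, a mitochondrial glutaredoxin of iron-sulfur cluster assembly that red cell precursors need for heme synthesis, fell by 1.11 on the log2 scale. Gpx7, a peroxidase of the endoplasmic reticulum, had 59.0, 66.6 and 122 scaled fragments in MPs and 1.18, 0 and 0 in APL progenitors. Gpx1, the abundant cytosolic peroxidase, was not called, with 761 FPKM in MPs and 824 FPKM in APL progenitors as group means.

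Of 20 tested glutathione transferases, which couple glutathione to electrophiles, 7 were higher (35%), 7 were lower (35%) and 6 were not called, against 21.7% and 24.4% of all genes tested. Among the higher genes, Gstm1 rose from 5592 ± 643 to 25860 ± 1951 scaled fragments (SD, n = 3 each), a 4.62-fold change, and Gstm2 rose 10.9-fold. Gstk1, a mitochondrial and peroxisomal transferase, rose 4.43-fold, and Mgst2, a microsomal transferase, rose 4.44-fold. Among the lower genes, Gstm5 had a log2 fold change of −3.24, Gstz1, an enzyme of tyrosine breakdown, of −2.68, and Gsta4 of −1.77. Hpgds, the hematopoietic prostaglandin D synthase, had 29.0, 12.4 and 26.2 scaled fragments in MPs and 5.89, 0 and 1.2 in APL progenitors. Hpgds is known from mast cells, and of 6 mast cell and basophil markers 4 were lower and 1, Mcpt8, was higher (1.13 on the log2 scale) and made up most of the APL sum, with sums of 51.6 to 72.7 FPKM in MPs and 42.1 to 49.9 FPKM in APL progenitors; their part was not tested. Gstm genes are close paralogs in a cluster on chromosome 3, and fragments shared between them may have been divided by the authors' counting.

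Txn1, thioredoxin, had 5300, 5363 and 7501 scaled fragments in the MP libraries and 8065, 7861 and 8862 in the APL libraries. MP library 3 lay near the APL values and the other MP libraries well below them. On the log2 scale the difference was 0.47 (standard error 0.13, 95% interval 0.16 to 0.77, adjusted p = 0.013 from limma), a 1.36-fold difference and not a call. Without MP library 3 it was 0.63 and called (adjusted p = 2.6e-05 from limma). Txnrd1, the cytosolic selenoprotein that reduces thioredoxin and a known target of arsenic, had 2813, 2984 and 3087 scaled fragments in MPs and 3285, 3264 and 3409 in APL progenitors. The groups were close but did not overlap, with a log2 fold change of 0.17 (standard error 0.07, 95% interval 0.01 to 0.32, adjusted p = 0.052 from limma). With all libraries scaled to the same total it was 0.034. The locus of Txnrd1 also holds Eid3, which had at most 14 scaled fragments in any library.

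Of the 13 tested thioredoxins, thioredoxin reductases, peroxiredoxins and their partners, 2 were higher and 5 were lower. The other 6, Txn1 and Txnrd1 among them, were not called. The shares were 15.4% higher and 38.5% lower, against 21.7% and 24.4% of all genes tested. Srxn1, the sulfiredoxin that restores overoxidized peroxiredoxins, rose from 129 ± 21.6 to 575 ± 29.7 scaled fragments (SD, n = 3 each), 4.46-fold. Prdx5, a peroxiredoxin of mitochondria, peroxisomes and cytosol, rose 2.28-fold. Prdx4, the peroxiredoxin of the endoplasmic reticulum, fell by 2.87 on the log2 scale, from 840 ± 201 to 112 ± 7.74 scaled fragments. Prdx2, the main peroxiredoxin of red cells, fell by 1.46, and Prdx1 by 1.44. Txnrd2, the mitochondrial thioredoxin reductase, fell by 0.82, and Txnip, an inhibitor that binds thioredoxin, by 0.74. The erythroid markers moved in the same direction as Prdx2 and Glrx5, with sums of 1501 to 1978 FPKM in MPs and 12.3 to 23.4 FPKM in APL progenitors, and their part in these decreases was not tested.

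Hmox1, heme oxygenase 1, splits heme into iron, carbon monoxide and biliverdin, and lies on chromosome 8 from 75093617 to 75100593. It had 98.3, 78.1 and 168 scaled fragments in the MP libraries and 271, 323 and 278 in the APL libraries. All APL values were higher, although MP library 3 held more than the other MP libraries. The means were 115 ± 47.0 and 291 ± 28.5 (SD, n = 3 each), a 2.53-fold increase, or 1.40 on the log2 scale (standard error 0.26, 95% interval 0.82 to 1.99, adjusted p = 0.0011 from limma). Hmox1 is abundant in macrophages that take up red cells. Of 8 macrophage markers tested, 4 were higher (Emr1, Cd68, Mrc1 and Vcam1) and 2 were lower (C1qa at −1.20 and Spic at −1.59). C1qb and C1qc were not called, at −1.58 and −0.90, and Marco was at or near 0 in every library. The sum was 14.2 to 18.7 FPKM in MPs and 51.3 to 52.6 FPKM in APL progenitors, most of it Cd68, Vcam1 and Emr1. The part of macrophages in the increase of Hmox1 was not tested.

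Nqo1, a quinone reductase that is a standard readout of NRF2 activity, lies on chromosome 8 from 107388224 to 107403205. It had 218, 211 and 268 scaled fragments in the MP libraries and 60.1, 72.0 and 83.9 in the APL libraries. The groups were separate, with means of 232 ± 30.8 and 72.0 ± 11.9 (SD, n = 3 each), 3.23-fold lower in APL progenitors. On the log2 scale the difference was −1.68 (standard error 0.18, 95% interval −2.09 to −1.28, adjusted p = 3.6e-05 from limma). Hmox1 and Nqo1, both known as NRF2 targets, therefore differed in opposite directions.

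Gsr, Hmox1 and Nqo1 lie on the same chromosome, and the 775 other genes tested on chromosome 8 had a median log2 fold change of 0.48, against −0.13 for genes of the other chromosomes. Relative to that median of chromosome 8, Gsr was at 2.16, Hmox1 at 0.93 and Nqo1 at −2.16 on the log2 scale. The part of the chromosome in the increases of Gsr and Hmox1 was not tested. For the chromosomes of the other 7 genes the shift from the rest lay between −0.086 and 0.021.

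Other NRF2 targets also split. Of 14 tested, Hmox1 and Nqo1 included, 7 were higher, 3 were lower and 4 were not called. These were 50% higher and 21.4% lower, against 21.7% and 24.4% of all genes tested. Genes of the glutathione and thioredoxin systems that NRF2 drives were counted in other lists. The lists were also chosen with earlier results of these data known, so these shares do not describe NRF2 targets as a whole. Idh1, a cytosolic source of NADPH, rose from 1909 ± 20 to 5875 ± 125 scaled fragments (SD, n = 3 each; log2 fold change 1.62), Osgin1, a growth inhibitor induced by oxidants, had 1.58 and Slc48a1, a heme transporter, had 1.56. The pentose phosphate enzymes G6pdx and Pgd, which make the NADPH that Gsr and Txnrd1 use, had 0.68 and 0.84, and G6pdx fell short of the 1.5-fold threshold at 0.55 when all libraries were scaled to the same total. The chains of ferritin moved apart: the light chain Ftl1 rose 2.13-fold, and the heavy chain Fth1 fell by 0.82 on the log2 scale. Blvrb, a flavin and biliverdin reductase abundant in red cells, fell by 2.37, from 2611 ± 668 to 498 ± 83.8 scaled fragments, in the direction of the erythroid markers. Ferritin genes have many processed copies in the genome, so their fragment estimates are uncertain.

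NRF2 itself lay at the threshold. Nfe2l2 had 3742, 3692 and 3974 scaled fragments in MPs and 2365, 2677 and 2651 in APL progenitors, with a log2 fold change of −0.57 (standard error 0.07, adjusted p = 1.4e-04 from limma), just under the fold for a call. It was called lower under 3 other normalizations, at −0.70 with libraries scaled to the same total and with voom and −0.64 with quantile normalization, and without MP library 2 (−0.59), APL library 2 (−0.60) or APL library 3 (−0.59). Keap1, which sends NRF2 to degradation, had −0.17, and Bach1, a repressor of Hmox1, had 0.28, neither of them called. Of the 12 genes of NRF2 and its regulators, only Bach2 was called (8.33% lower, against 24.4% of all genes tested). Bach2, a relative of Bach1 best known from lymphoid cells, fell by 3.32 on the log2 scale. Its means were 84.3 ± 15.4 and 7.80 ± 3.08 scaled fragments (SD, n = 3 each). With FPKM and a pseudocount of 0.1 it fell by 1.78. Of 4 lymphoid markers tested 3 were lower, with sums, nearly all Cd79b in MPs, of 12.3 to 14.9 FPKM in MPs and 0.305 to 0.636 FPKM in APL progenitors, and their part in the decrease of Bach2 was not tested.

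**Figure D3:**
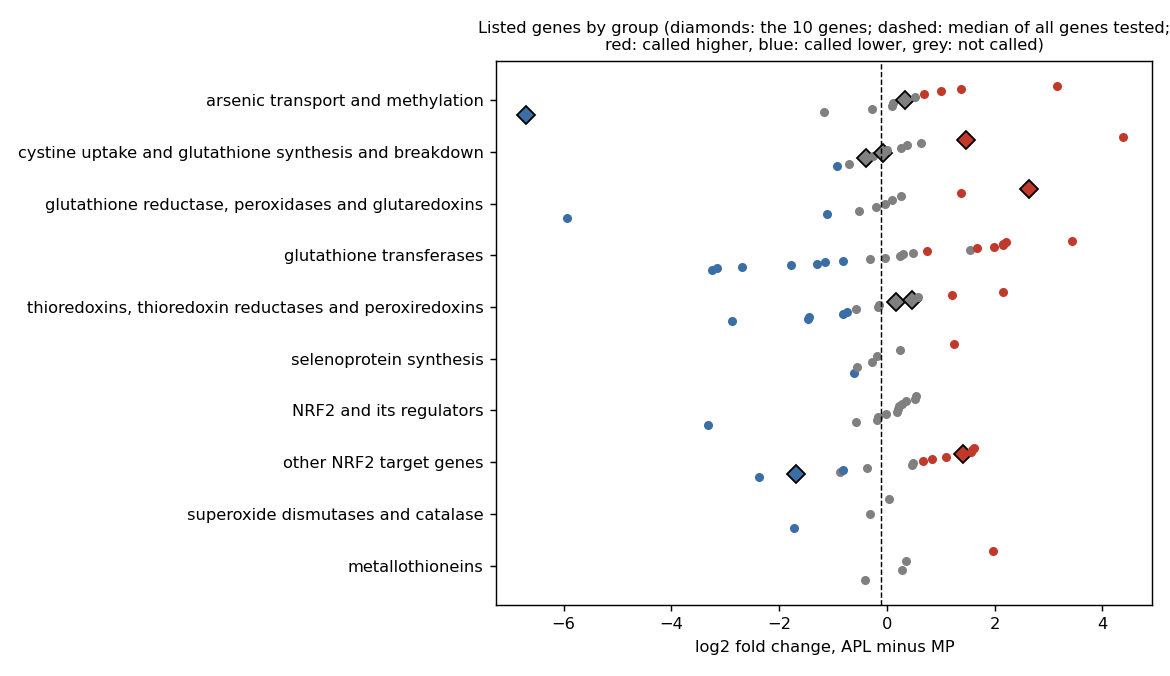
Log2 fold change (x axis, APL minus MP) of the 104 tested genes of 10 lists, 1 row per list, with the 10 genes as diamonds and a dashed line at the median of all genes tested, −0.10. Each list has calls in both directions except the superoxide dismutases with catalase, NRF2 and its regulators and the metallothioneins, and Aqp9 lies farthest to the left.

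Over all lists, 107 of 111 genes were in the table and 104 were tested, of which 26 were higher, 22 were lower and 56 were not called. Without the 10 genes, 24.5% of the remaining 94 were higher and 21.3% were lower, close to the 21.7% and 24.4% of all genes tested. The median log2 fold change of all listed genes was 0.10, against −0.10 over all genes.

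Per transcript length, the 10 genes spanned several orders of magnitude. In MPs the order by mean FPKM was Txn1 (277 ± 51.6), Gsr (110 ± 11.4), Gclm (81.7 ± 6.17), Txnrd1 (31.5 ± 1.19), Gclc (25.6 ± 0.940), Aqp9 (16.8 ± 3.44), As3mt (12.2 ± 0.393), Nqo1 (5.80 ± 0.697), Hmox1 (2.73 ± 1.07) and Slc7a11 (0.060 ± 0.012) (SD, n = 3 each). No neighbours in this order overlapped between libraries. In APL progenitors the order was Gsr (682 ± 29.5), Txn1 (375 ± 17.1), Gclm (78.6 ± 1.41), Txnrd1 (35.3 ± 0.618), Gclc (19.7 ± 0.292), As3mt (15.5 ± 1.64), Hmox1 (7.03 ± 0.663), Nqo1 (1.78 ± 0.266), Slc7a11 (0.17 ± 0.036) and Aqp9 (0.16 ± 0.095). Here the values of Slc7a11 and Aqp9 overlapped and the other neighbours did not. Aqp9 went from the sixth place to the last, Gsr and Txn1 changed places, and so did Hmox1 and Nqo1, while Gclm, Txnrd1 and Gclc kept theirs.

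**Figure D4:**
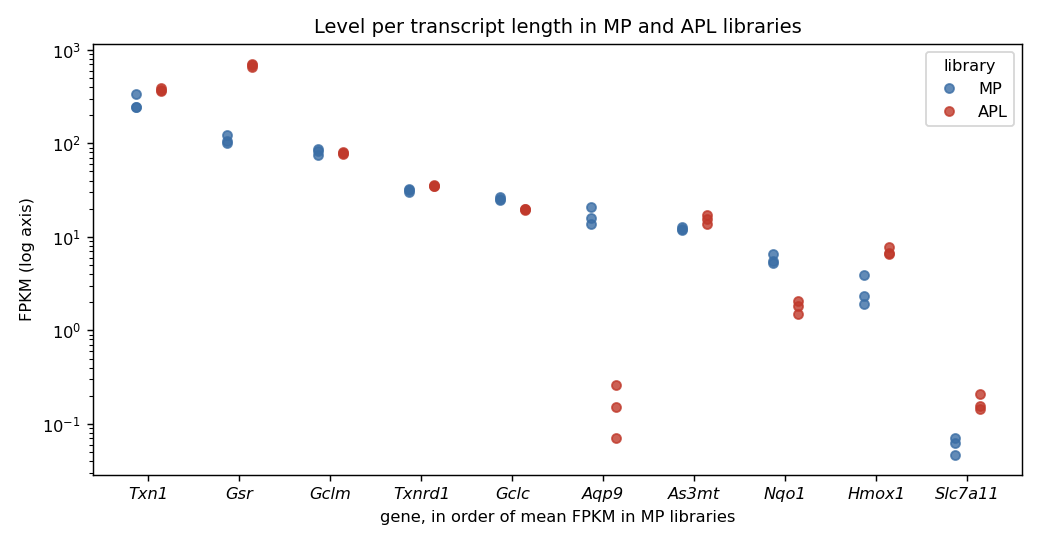
FPKM (y axis, log scale) of the 10 genes in each MP (blue) and APL (red) library, in the order of their MP means. Gsr in APL progenitors, at 654 to 713 FPKM, lay above Txn1, and Aqp9 in APL progenitors, at 0.071 to 0.26 FPKM, lay at the level of Slc7a11.

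The promoters of 7 of the 10 genes were in the RefSeq table of GRCm38.p6; Gclc, Gsr and Hmox1 were not. The 250 bases before each start were searched on both strands for the core of the antioxidant response element that NRF2 binds (TGACNNNGC), and, both added after the values were seen, for the AP-1 site (TGANTCA) and the element TGATGCAA that C/EBP and ATF4 factors bind. The first was found before 2 of the 10 starts listed for these genes, that of Gclm and 1 of 3 of Txnrd1, and before 10.2% of 32851 starts of all genes. The AP-1 site was found before As3mt and before the inner of the 2 starts of Aqp9, and before 6.75% of all starts. TGATGCAA was found before Slc7a11 alone, on each strand once, and before 0.791% of all starts. A TGACNNNGC match can overlap an AP-1 site, which none did here. Of the genes that were called, Aqp9 (outer start, chr9:71163290-71163539), Nqo1 (chr8:107403206-107403455) and Slc7a11 (chr3:50443614-50443863), all on the minus strand, are shown 5′ to 3′ up to the base before the start, with Gclm (chr3:122245307-122245556, plus strand) as a gene that was not called and has the antioxidant core. Capitals mark the matches.
Aqp9: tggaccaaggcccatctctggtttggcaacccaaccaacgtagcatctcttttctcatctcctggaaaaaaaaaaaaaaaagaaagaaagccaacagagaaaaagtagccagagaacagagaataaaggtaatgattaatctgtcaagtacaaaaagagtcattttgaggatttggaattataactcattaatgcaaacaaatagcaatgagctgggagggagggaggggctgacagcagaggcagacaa
Nqo1: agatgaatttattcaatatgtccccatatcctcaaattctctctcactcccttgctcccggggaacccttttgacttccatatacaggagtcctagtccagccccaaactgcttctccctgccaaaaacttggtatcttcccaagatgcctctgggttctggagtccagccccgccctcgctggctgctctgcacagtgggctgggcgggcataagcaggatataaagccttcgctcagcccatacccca
Slc7a11: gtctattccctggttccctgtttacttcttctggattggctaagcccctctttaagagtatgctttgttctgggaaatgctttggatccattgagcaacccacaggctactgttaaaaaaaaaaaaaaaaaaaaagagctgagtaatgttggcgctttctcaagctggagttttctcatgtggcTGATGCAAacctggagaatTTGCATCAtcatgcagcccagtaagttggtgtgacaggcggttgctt
Gclm: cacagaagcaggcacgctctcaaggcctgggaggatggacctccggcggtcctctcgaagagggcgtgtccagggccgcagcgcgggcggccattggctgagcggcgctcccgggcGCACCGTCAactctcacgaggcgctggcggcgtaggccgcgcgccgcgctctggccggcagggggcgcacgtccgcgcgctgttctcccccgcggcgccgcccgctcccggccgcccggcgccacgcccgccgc
No match was found in the stretches before the outer start of Aqp9 and before Nqo1, which says only that these letters are not in these windows. In Slc7a11, the matches begin 66 and 47 bases before the start. In Gclm, the match lies on the opposite strand and begins 134 bases before the start.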

How the data were processed

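RNA-seq of 3 MP and 3 APL libraries was analysed from 1 table of 16440 genes. The authors deposited FPKM values, which are normalized to transcript length and mapped fragments, and a signal of estimated fragments per gene that carries a factor of each library. The value of 1 fragment, 0.867 to 1.23, was read from the most frequent low step. Of nonzero values under 100 fragments, 86.2% to 88.2% were whole multiples of it within 0.02, so no count test was applied. The study's methods name STAR with mm9, HTSeq-count and DESeq2, and the submitters' processing notes name CASAVA 1.8, TopHat2 2.0.6 and mm10. The tool behind the table is not given in the sources used here, and how it divided fragments between similar genes is already in the values.

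The test was limma 3.58.1 in R 4.3.3 (lmFit, then eBayes with its trend option) on log2(scaled fragments + 1). It covered the 14595 genes with at least 1 scaled fragment in at least 3 of 6 libraries. Differences of low genes are understated on this scale. For single values the exact permutation test was two-sided, and 0.1 is the smallest p it allows here. In data simulated with the same spread in every library and changes of at least 2-fold, 197 of 200 changed genes were recovered. There were 2 false calls among 14426 genes tested. In the real data MP library 3 stood apart and many more genes were called, so the simulation checked only the code and gives no error rate here. Counting error alone limits a gene of at most 3 fragments, which is not distinguishable from absence. Members and lists were chosen with earlier results of these data known. All 10 genes are named with their values; of each further list, the called genes with the largest changes and genes whose role is explained beside them. Alternatives covered the filter, the pseudocount, FPKM, scaling, voom weights, the call, the library number as a block and each library left out. Python 3.11.15 with matplotlib 3.10.9 made the figures.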

Additional observations from a re-analysis of the deposited data

How the results depend on the processing

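The 19 alternatives gave 189 values for the 10 genes, of which 187 kept direction and call. The exceptions were Gclm, at 0.016 against −0.07, and Txn1, called at 0.63 against 0.47, both without MP library 3; with each library left out in turn, Gclm ranged from −0.13 to 0.016 and Txn1 from 0.38 to 0.63. With FPKM and a pseudocount of 1, 1980 of all genes were lower, against 3558, and Slc7a11 was not tested. Of 48 further named genes, 34 kept direction and call under all alternatives that gave a value. Of their 909 values, 18 lost the call, 9 of them where a 2-fold change was required, and Secisbp2, Gsto1, Ggt5 and G6pdx lost it also under another scaling. Another 6, all of Nfe2l2, gained a call as lower. The sign turned in 16 values, all of genes that were not called: with the same total and with voom, Abcc1 was at −0.026 and −0.026, Gss at −0.13 and −0.13, Gpx1 at −0.031 and −0.031 and Cat at −0.087 and −0.088, and with each library left out Gss ranged from −0.082 to 0.14, Gpx1 from −0.056 to 0.23 and Cat from −0.011 to 0.14. On FPKM with a pseudocount of 1 the differences of low genes shrank, Aqp9 to −3.93, Chac1 to 2.37, Abcc2 to 1.94 and Osgin1 to 0.78, and all 4 stayed called; Bach2, not tested there, was at −1.78 with a pseudocount of 0.1. Scaling to the same total and voom moved the median of all genes to −0.23 from −0.10, and lower genes then made up 61.4% and 60.9% of calls, against 52.9%.

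When the number of each library entered as a replicate block, 3164 genes were higher and 3589 lower, against 3167 and 3558, and 6673 of the 6725 calls were shared; no call among the 10 genes changed. Same-numbered libraries had deviations from their group means that correlated at 0.21, 0.042 and 0.21. Across groups, libraries of unlike number correlated at −0.34 (MP library 3 with APL library 1) to 0.20 (MP library 2 with APL library 1). The main model left out the library number by design. Deviations centred within groups of 3 libraries cannot decide whether the numbers are pairs.

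Of the 10 genes, depth limits mainly Aqp9 in APL progenitors (4 to 15 fragments) and Slc7a11. Of the other named genes, Gpx7, Hpgds and Bach2 had at most 1, 5 and 9 fragments in an APL library, and Chac1 at most 11 in an MP library.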

Other observations

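Of the 4 tested metallothionein genes and regulators, Mt1, a cysteine-rich protein that binds zinc, cadmium and arsenic, was the 1 gene called. The share called higher was 25%, against 21.7% of all genes tested. The MP libraries held 1808, 1914 and 2582 scaled fragments of Mt1 and the APL libraries 7047, 7784 and 9660, a 3.89-fold increase with a log2 fold change of 1.96 (standard error 0.15, limma, Benjamini-Hochberg adjusted p = 5.5e-06). Its neighbour Mt2 had a log2 fold change of 0.35 and was not called, although both genes are usually induced together by metals. Both lie on chromosome 8, whose genes had a median of 0.48, and as close paralogs they may share fragments.

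Sod1, the cytosolic superoxide dismutase, fell by 1.73 on the log2 scale, from 6665 ± 1597 to 1974 ± 166 scaled fragments (SD, n = 3 each), while Sod2, the mitochondrial form, and Cat, catalase, were not called, at −0.31 and 0.04. Of the 6 genes of selenoprotein synthesis, on which Txnrd1 and the glutathione peroxidases depend, Sephs2, which makes the selenium donor and is itself a selenoprotein, rose from 2793 ± 198 to 6623 ± 280 scaled fragments (log2 fold change 1.25), Secisbp2 fell by 0.62, and the other 4 were not called. Each direction held 16.7% of these genes, against 21.7% higher and 24.4% lower of all genes tested. The call of Secisbp2 was lost with FPKM and a pseudocount of 1, with median of ratios scaling and without APL library 3.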
